A study of Mus musculus with 12 samples.

Results

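The genes described here encode the proteins of blood clotting and of clot dissolution (fibrinolysis), 31 genes taken by name. Each was matched by gene symbol to the array probe sets that carry 1 symbol only, and was read on the matching probe set of highest mean. Of the 31 genes, 29 had such a probe set, out of 19935 genes with one on the array, and all 29 were bright enough to be tested. Klkb1 (plasma prekallikrein) shares its probe set with another gene, and Cpb2 was not matched, so both were not analysed here.

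The samples were whole livers of ovariectomised mice aged 3 months, labelled C57BL/6, profiled on Affymetrix Mouse Gene 1.0 ST arrays. The mice were wild type, ERKO (oestrogen receptor alpha knocked out) or MOER (membrane oestrogen receptor alpha only). After 1 week of recovery each genotype received 3 daily intraperitoneal injections of either PPT (100 µg), a compound that activates oestrogen receptor alpha selectively, or oil (0.1 mL). Each of the 6 groups had 2 arrays, each array carried the pooled RNA of 3 animals, and the labels say that the whole study was done a second time. The sources used here do not give how the ERKO and MOER alleles were made. A repeat of the study would mean different mice on the paired arrays, but the labels do not state this or tie a replicate number to a run, and a p-value here measures the spread between these arrays.

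Clotting is a chain of proteases. Tissue factor starts it with factor VII, factors IX and X with their cofactors VIII and V generate thrombin (from F2), and thrombin turns fibrinogen into fibrin. Antithrombin and other serpins, protein C with protein S, and tissue factor pathway inhibitor restrain it, and plasmin (from plasminogen) dissolves the clot. Hepatocytes make most of these plasma proteins, factor VIII comes mainly from liver sinusoidal endothelium, and oestrogens are known to change the plasma levels of several of them.

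The study's title asks whether effects of oestrogen on the liver come from the receptor at the membrane, which MOER livers have and ERKO livers lack. The deposited values were linear intensities, with array medians of 77.5 to 85.26. Differences were tested on log2(intensity + 16) with 1 limma fit over 19119 probe sets, and a gene was called higher or lower at a Benjamini-Hochberg adjusted p under 0.05. Log2 changes are given ± the standard error of that fit. The paired arrays correlated at 0.994 to 0.997 across probe sets, except in ERKO oil at 0.981, where 162 probe sets differed more than 2-fold against 2 to 21 elsewhere. Esr1, the receptor's gene, read 309 to 365 in wild type arrays, 117 to 131 in MOER and 118 to 162 in ERKO. None of 9 hepatocyte markers was under the 40th percentile of the array on both arrays of any group. The summed intensity of 11 pancreatic acinar genes was 36410 to 46531 in the MOER oil arrays and 351 to 541 in the other arrays. The highest value of any probe set was 1602759 and 1219897 on the MOER oil arrays and 19752 to 51281 on the others. The part of the acinar genes or of these maxima in the MOER results was not tested.

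Promoters of 8 of the 21 genes with a matched promoter are shown, 5 because they had the largest wild type responses among those 21, and the 3 fibrinogen genes because they lie side by side. Each is the 250 bases before the annotated start, from RefSeq on build GRCm38.p6, in gene orientation. Capitals mark matches on either strand to the letters GTTAAT (HNF1), AAAGTCCA (HNF4), TTGCNNAA (C/EBP), TTCNNNGAA (STAT), CTGGGA (the core bound by STAT3 in acute phase genes) and GGTCA (1 arm of the oestrogen response element). The fibrinogen genes Fgg, Fga and Fgb follow one another on chromosome 3:
Fga (chr3:83025903-83026152, plus strand): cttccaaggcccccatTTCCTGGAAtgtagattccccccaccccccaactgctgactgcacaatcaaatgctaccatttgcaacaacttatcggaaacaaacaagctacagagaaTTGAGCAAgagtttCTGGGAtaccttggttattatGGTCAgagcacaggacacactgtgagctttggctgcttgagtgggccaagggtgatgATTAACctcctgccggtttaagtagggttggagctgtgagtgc
Fgb (chr3:83049864-83050113, minus strand): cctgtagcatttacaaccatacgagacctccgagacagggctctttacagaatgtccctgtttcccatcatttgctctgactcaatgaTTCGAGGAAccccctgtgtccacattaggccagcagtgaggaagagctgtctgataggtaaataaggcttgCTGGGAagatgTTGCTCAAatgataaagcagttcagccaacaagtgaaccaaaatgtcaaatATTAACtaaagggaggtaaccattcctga
Fgg (chr3:83007474-83007723, plus strand): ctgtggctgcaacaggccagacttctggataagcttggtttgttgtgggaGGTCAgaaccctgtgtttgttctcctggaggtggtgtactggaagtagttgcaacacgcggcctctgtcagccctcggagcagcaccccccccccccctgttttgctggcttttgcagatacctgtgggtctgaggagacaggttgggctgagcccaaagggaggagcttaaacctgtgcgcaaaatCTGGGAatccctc
Tissue factor (F3) and factor XI (F11) rose most among the shown genes in wild type:
F3 (chr3:121723287-121723536, plus strand): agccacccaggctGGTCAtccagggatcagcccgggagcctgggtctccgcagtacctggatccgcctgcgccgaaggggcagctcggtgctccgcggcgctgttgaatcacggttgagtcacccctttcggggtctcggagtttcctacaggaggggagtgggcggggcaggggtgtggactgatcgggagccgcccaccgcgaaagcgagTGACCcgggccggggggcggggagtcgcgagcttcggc
F11 (chr8:45262032-45262281, minus strand): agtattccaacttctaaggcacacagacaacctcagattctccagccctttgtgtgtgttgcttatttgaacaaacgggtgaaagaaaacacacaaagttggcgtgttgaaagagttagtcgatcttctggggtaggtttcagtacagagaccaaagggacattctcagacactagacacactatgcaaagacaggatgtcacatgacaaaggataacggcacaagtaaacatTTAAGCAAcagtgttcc
Factor V, factor VII and histidine-rich glycoprotein (Hrg) fell most:
F5 (chr1:164151585-164151834, plus strand): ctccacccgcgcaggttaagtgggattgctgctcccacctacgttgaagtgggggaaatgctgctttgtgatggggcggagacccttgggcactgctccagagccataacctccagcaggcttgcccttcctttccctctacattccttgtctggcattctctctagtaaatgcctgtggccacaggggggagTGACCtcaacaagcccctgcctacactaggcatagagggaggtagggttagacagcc
F7 (chr8:13025784-13026033, plus strand): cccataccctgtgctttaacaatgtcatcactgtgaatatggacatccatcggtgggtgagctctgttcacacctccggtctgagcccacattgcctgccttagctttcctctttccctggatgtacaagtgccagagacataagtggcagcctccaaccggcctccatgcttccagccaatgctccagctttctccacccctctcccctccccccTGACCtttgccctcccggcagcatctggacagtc
Hrg (chr16:22950822-22951071, plus strand): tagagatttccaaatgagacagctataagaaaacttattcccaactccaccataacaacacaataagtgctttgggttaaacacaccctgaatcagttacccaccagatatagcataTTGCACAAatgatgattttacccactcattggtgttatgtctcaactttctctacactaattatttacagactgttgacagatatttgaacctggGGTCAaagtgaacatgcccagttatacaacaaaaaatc

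Promoters were matched for 21 of the 29 genes, and shares are set against 27025 promoters of the same length. The letters GGTCA stood in 61.9% of the 21 and in 34.9% of all promoters, and they also form part of sites for other nuclear receptors. They were present in 8 of the 12 matched genes that fell in wild type and in 2 of the 3 that rose. The full palindrome, GGTCA and TGACC with 3 bases between, was in 0 of the 21 and in 0.0629% of all. TTGCNNAA stood in 28.6% of the 21 against 9.55%, TTCNNNGAA in 19.0% against 7.18%, CTGGGA in 42.9% against 26.8%, GTTAAT in 19.0% against 6.52%, and AAAGTCCA in 0 of the 21 against 1.02%. In F9 the TTCNNNGAA and CTGGGA matches overlap. Fga and Fgb each held TTCNNNGAA, TTGCNNAA, CTGGGA and GTTAAT, and Fgg held CTGGGA and GGTCA. A match is a description of these letters and not a bound site.

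In wild type liver PPT changed 19 of the 29 genes. Of them 14 fell, where 16.2% of all tested probe sets fell, and 5 rose, where 14.8% of all rose. The median change of the 29 was -0.29, against 0.02 over all probe sets tested. The genes that fell included factors II, V, VII, VIII, X and XII, the inhibitors antithrombin and heparin cofactor II, plasminogen and Hrg. The genes that rose were tissue factor, factor XI, urokinase (Plau), Serpina10 and Tfpi.

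In MOER liver 6 of the 29 genes rose (F5, F11, Fga, Serpina10, Serpinf2 and Pros1), where 2.35% of all tested probe sets rose, and none was called lower, where 2.31% of all were. At an unadjusted p under 0.05, limma placed 10 higher and 0 lower. The share of all probe sets at that threshold was not computed, here or below. The count of 6 fell to 2 without any 1 of the 4 MOER arrays, to 3 without any 1 wild type or ERKO PPT array, and was 10 without either ERKO oil array. In ERKO liver 13 of the 29 fell, where 8.46% of all did, and 1 rose (Tfpi), where 9.48% of all did. The ERKO count of 14 was 8 without either ERKO PPT array and 18 without ERKO oil replicate 2.

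**Figure D1:**
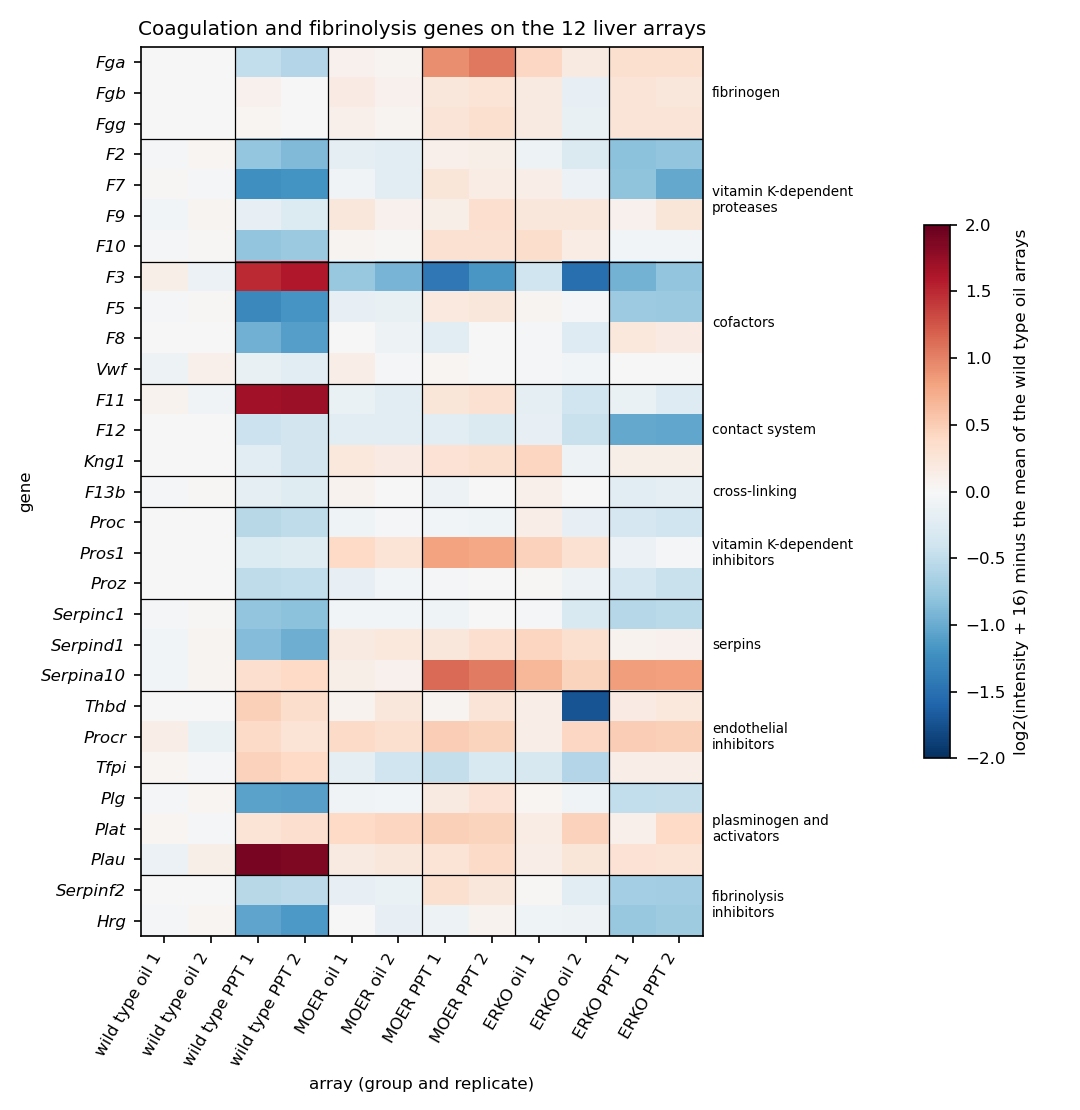
Each of the 29 tested genes (rows, by role) on each of the 12 arrays (columns), as log2(intensity + 16) minus the mean of the wild type oil arrays. Most rows turn blue (lower) in the wild type PPT arrays and many in the ERKO PPT arrays, while F3, F11 and Plau turn red (higher) in the wild type PPT arrays; the ERKO oil replicate 2 array is lowest of all for Thbd and F3.

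Of the 14 genes lower in wild type, 12 were also lower in ERKO, which is 85.7% of the wild type genes and 92.3% of the 13 ERKO genes. Over all probe sets 772 fell in both, 25% of 3094 in wild type and 47.7% of 1618 in ERKO. The 2 that fell in wild type only by call were F8 and Fga, and the 1 that fell in ERKO only by call was Pros1. The wild type and ERKO responses share no arrays.

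The fibrinogen chains are made in the liver and assembled from the products of the 3 neighbouring genes. Fga (alpha chain, probe set 10492748) read 3682 and 3730.3 in the wild type oil arrays and 2618 and 2451 after PPT. In MOER it went from 3946 and 3832 to 7086 and 7687, and in ERKO from 4969 and 4208 to 4609.6 and 4636. The gene thus fell in wild type (-0.55 ± 0.099, adjusted p = 0.00163) and rose in MOER (0.92 ± 0.099, adjusted p = 0.000266), with no overlap between oil and PPT arrays in either genotype, while the ERKO arrays overlapped (0.02 ± 0.099, adjusted p = 0.935). The response differed between wild type and MOER by -1.47 ± 0.14 (adjusted p = 3.35e-05), between MOER and ERKO by 0.91 ± 0.14 (0.00248) and between wild type and ERKO by -0.56 ± 0.14 (0.0156). A second Fga probe set gave changes of -0.55 (wild type), 1.19 (MOER) and 0.10 (ERKO), with the same calls. Fgb and Fgg, among the brightest probe sets of the array (mean percentiles 99.9 and 99.88), were called in no comparison. Fgb ranged from 12283 to 16584 and Fgg from 11860 to 16481 over the 12 arrays. Their wild type changes were 0.04 ± 0.11 (95% interval -0.21 to 0.29) and 0.02 ± 0.11 (-0.21 to 0.26), and their MOER changes 0.13 ± 0.11 and 0.21 ± 0.11. Whether probe sets this bright can show a change of the size seen in Fga was not tested.

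Beside these values, 17 of 24 acute phase genes were higher after PPT in MOER, with a list median of 0.78. In wild type 9 of the 24 rose and 6 fell, and in ERKO 7 rose and 5 fell. For these and the gene lists below, 14.8% of all tested probe sets rose and 16.2% fell in wild type. The shares were 2.35% and 2.31% in MOER and 9.48% and 8.46% in ERKO. The summed intensity of the acute phase genes was 112081 to 117564 in MOER oil and 174889 to 179857 in MOER PPT. It was also higher after PPT in wild type (83288.5 to 84401 under oil, 109214 to 116663 after PPT). The same held in ERKO (113247 to 140524 under oil, 163468 to 168245 after PPT). The part of the acute phase genes in the fibrinogen values was not tested.

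The vitamin K-dependent proteases are zymogens whose glutamate residues are carboxylated before secretion. Prothrombin (F2) read 4807 and 5105 in wild type oil and 2891 and 2691 after PPT, 4623 and 4051 and 2808 and 2852 in ERKO, and 4323 and 4259 and 5318 and 5387 in MOER. PPT arrays lay below oil arrays in wild type (-0.83 ± 0.093, adjusted p = 5.54e-05) and ERKO (-0.61 ± 0.093, 0.00169) and above them in MOER, where the change was not called (0.32 ± 0.093, adjusted p = 0.0949). Factor VII (F7) gave the largest fall of these, from 750.3 and 724 to 305 and 313 in wild type (-1.21 ± 0.11, adjusted p = 1.45e-05) and from 806 and 679 to 414 and 354 in ERKO (-0.92 ± 0.11, 0.000452). In MOER it read 703 and 625 under oil and 875 and 819 after PPT (0.35 ± 0.11, adjusted p = 0.148, not called). Factor X (F10), the protease that cuts prothrombin, read 3053 and 3145 and then 1793 and 1852 in wild type, 3215 and 3164 and 3810.4 and 3836 in MOER, and 3954 and 3454 and 2987 and 2967 in ERKO. It fell in wild type (-0.76 ± 0.089, adjusted p = 7.69e-05) and less in ERKO (-0.31 ± 0.089, 0.0372), a difference of -0.45 ± 0.13 (adjusted p = 0.0270), and the MOER change was 0.26 ± 0.089 (0.172). The ERKO call for F10 was lost in 11 of 12 fits that each left out 1 array. Factor IX (F9) moved little and was called in no comparison, with -0.22 ± 0.11, 0.07 ± 0.11 and -0.06 ± 0.11 in wild type, MOER and ERKO. F7, F10 and Proz are neighbours on chromosome 8, and all 3 fell in wild type and ERKO.

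The vitamin K-dependent inhibitors are protein C, its cofactor protein S, and protein Z, the cofactor of Serpina10. Protein C (Proc) read 2066 and 2043 and then 1398 and 1439 in wild type, 2244 and 1835 and 1619 and 1554 in ERKO, and 1942 and 2007 and 1976 and 1935 in MOER. It fell in wild type (-0.53 ± 0.10, adjusted p = 0.00231) and in ERKO (-0.35 ± 0.10, 0.0376), the latter call not holding in 11 of 12 fits that each left out 1 array, and was -0.01 ± 0.10 in MOER. Protein Z (Proz) went from 1501 and 1514 to 1060.1 and 1069 in wild type and from 1539 and 1403 to 1176 and 1105 in ERKO, and read 1339.6 and 1443 and 1483 and 1509 in MOER. Its changes were -0.50 ± 0.088 (adjusted p = 0.00139), -0.36 ± 0.088 (0.0185) and 0.10 ± 0.088 (0.691). Protein S (Pros1), which is also a ligand of TAM receptors, differed from them. Under oil it read 570.4 and 566 in wild type, 752 and 692 in MOER and 787 and 707 in ERKO, and after PPT 466 and 479.5, 1000.4 and 987 and 525 and 557. Pros1 rose in MOER (0.45 ± 0.090, adjusted p = 0.0157) and fell in ERKO (-0.45 ± 0.090, 0.00734), a difference of 0.91 ± 0.13 (adjusted p = 0.00136). In wild type -0.26 ± 0.090 was not called (adjusted p = 0.0519).

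**Figure D2:**
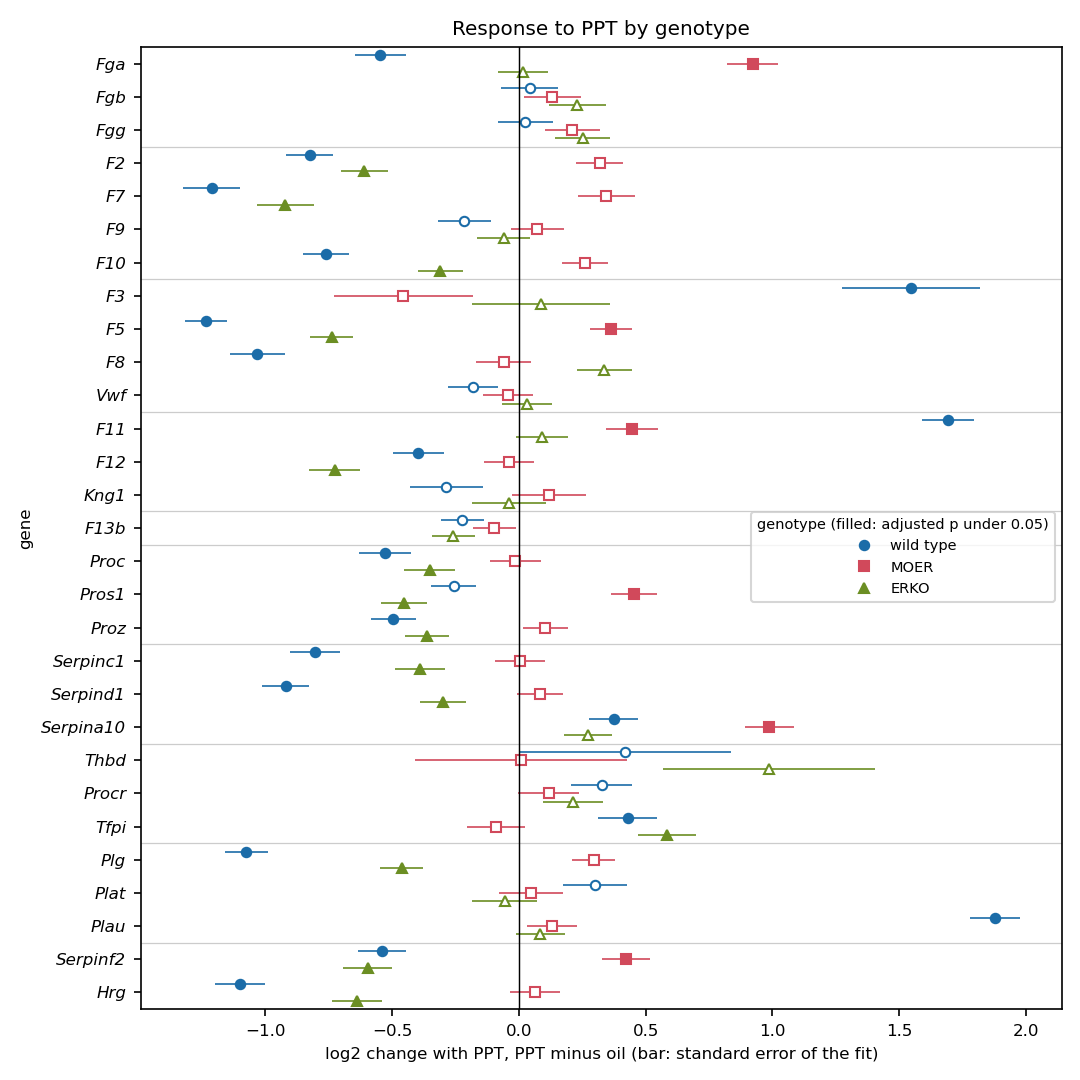
Log2 change with PPT (PPT minus oil) of the 29 tested genes in wild type (circles), MOER (squares) and ERKO (triangles), with bars for the standard error of the fit and filled symbols where the adjusted p was under 0.05. Wild type circles spread from -1.24 (F5) to 1.88 (Plau), ERKO triangles fall mostly left of 0, and the called MOER squares all lie right of 0.

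The cofactors moved in opposite directions. Factor V (F5), which speeds the cutting of prothrombin, read 1125 and 1170.3 in wild type oil and 461 and 497 after PPT, the largest fall of the 29 genes there (-1.24 ± 0.084, adjusted p = 1.29e-06). In ERKO it went from 1189 and 1122 to 689.7 and 682 (-0.74 ± 0.084, adjusted p = 0.000256) and in MOER from 1028 and 1035 to 1320.3 and 1342 (0.36 ± 0.084, 0.0346). The MOER rise was lost in 10 of the 12 fits without 1 array. Tissue factor (F3), the cell-surface starter of clotting, was near background outside wild type. It read 94.7 and 77.7 in wild type oil and 271 and 293 after PPT, a 2.92-fold rise in intensity + 16 (1.55 ± 0.27, adjusted p = 0.00136). The other 8 arrays read 44.4 and 37.4 (MOER oil), 21.9 and 29.3 (MOER PPT), 61.5 and 19.7 (ERKO oil) and 37.2 and 42.8 (ERKO PPT), and 3 of these 4 groups lay under the 40th percentile of their arrays. Every wild type PPT array was thus above every other array for F3, and the size of the difference from MOER (2.00 ± 0.39, adjusted p = 0.00353) and ERKO (1.46 ± 0.39, 0.0206) depends on the 16 added before the log.

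Factor VIII (F8), the cofactor of factor IX, read 903 and 912 in wild type oil and 457 and 415 after PPT (-1.03 ± 0.11, adjusted p = 3.27e-05). In MOER it was 900.3 and 842 and 775 and 899 (-0.06 ± 0.11, 0.889), and in ERKO 881 and 757 and 1055 and 1017 (0.34 ± 0.11, 0.0547). The fall in wild type thus differed from both other genotypes, by -0.97 ± 0.15 from MOER (adjusted p = 0.000952) and by -1.37 ± 0.15 from ERKO (0.000107). Beside it, 9 of 17 endothelial marker genes fell in wild type and 2 rose, and their summed intensity went from 9791 to 9936 under oil to 5877 to 5916 after PPT. In MOER the sums were 9198 to 9221 and 8837 to 9141, and in ERKO 7750 to 8980 and 9339 to 9795. The largest called changes were the falls of Ptprb (-1.67 ± 0.11), Ehd3 (-1.37 ± 0.13) and Clec4g (-1.37 ± 0.091) and the rise of Emcn (1.20 ± 0.17). Lyve1 also rose (0.79 ± 0.25), and Pecam1 (0.24 ± 0.12), Cdh5, Tie1, Stab1, Stab2 (0.14 ± 0.089) and Gpr182 were not called. None of the 17 markers was under the 40th percentile on both arrays of any group. The part of these endothelial values in the F8 result was not tested, and in whole liver fewer cells of a type and less RNA per cell cannot be told apart. Von Willebrand factor (Vwf), the carrier of factor VIII, read only 51.1 to 69.8 over the 12 arrays, near the 40th percentile of 53.6 to 61.0, and was called in no comparison.

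In the contact system, factor XI (F11), which activates factor IX, had the largest wild type rise among the listed genes that were not dim under oil. It read 555 and 499 in wild type oil and 1716 and 1753 after PPT, 3.23-fold (1.69 ± 0.10, adjusted p = 6.40e-07). In MOER it went from 478 and 451 to 626 and 651 (0.45 ± 0.10, adjusted p = 0.0345, lost in 10 of the 12 fits without 1 array), and in ERKO it read 463 and 394 and 476 and 437 (0.09 ± 0.10, 0.590). The wild type rise exceeded that in MOER by 1.25 ± 0.15 (adjusted p = 0.000130) and that in ERKO by 1.60 ± 0.15 (2.47e-05). Factor XII (F12), which starts the contact pathway, showed another order. It read 1647 and 1675 and then 1227 and 1288 in wild type, 1418 and 1440.3 and 1424 and 1357 in MOER, and 1479 and 1222 and 812 and 799 in ERKO. The ERKO fall (-0.73 ± 0.10, adjusted p = 0.000980) stood beside -0.40 ± 0.10 in wild type (0.0112) and -0.04 ± 0.10 in MOER, and ERKO and wild type did not differ by call (0.33 ± 0.14, adjusted p = 0.126, 95% interval 0.02 to 0.64). The wild type call for F12 was lost without either wild type oil array or without wild type PPT replicate 1. Kininogen 1 (Kng1) and the factor XIII carrier subunit (F13b) were called in no comparison, with wild type changes of -0.29 ± 0.14 and -0.22 ± 0.085. Kng2, a kininogen gene among the other genes counted below, fell in wild type (-0.41 ± 0.095, adjusted p = 0.00673). It was 0.26 ± 0.095 in MOER and -0.25 ± 0.095 in ERKO, neither called, and MOER minus ERKO was 0.50 ± 0.13 (adjusted p = 0.0363).

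**Figure D3:**
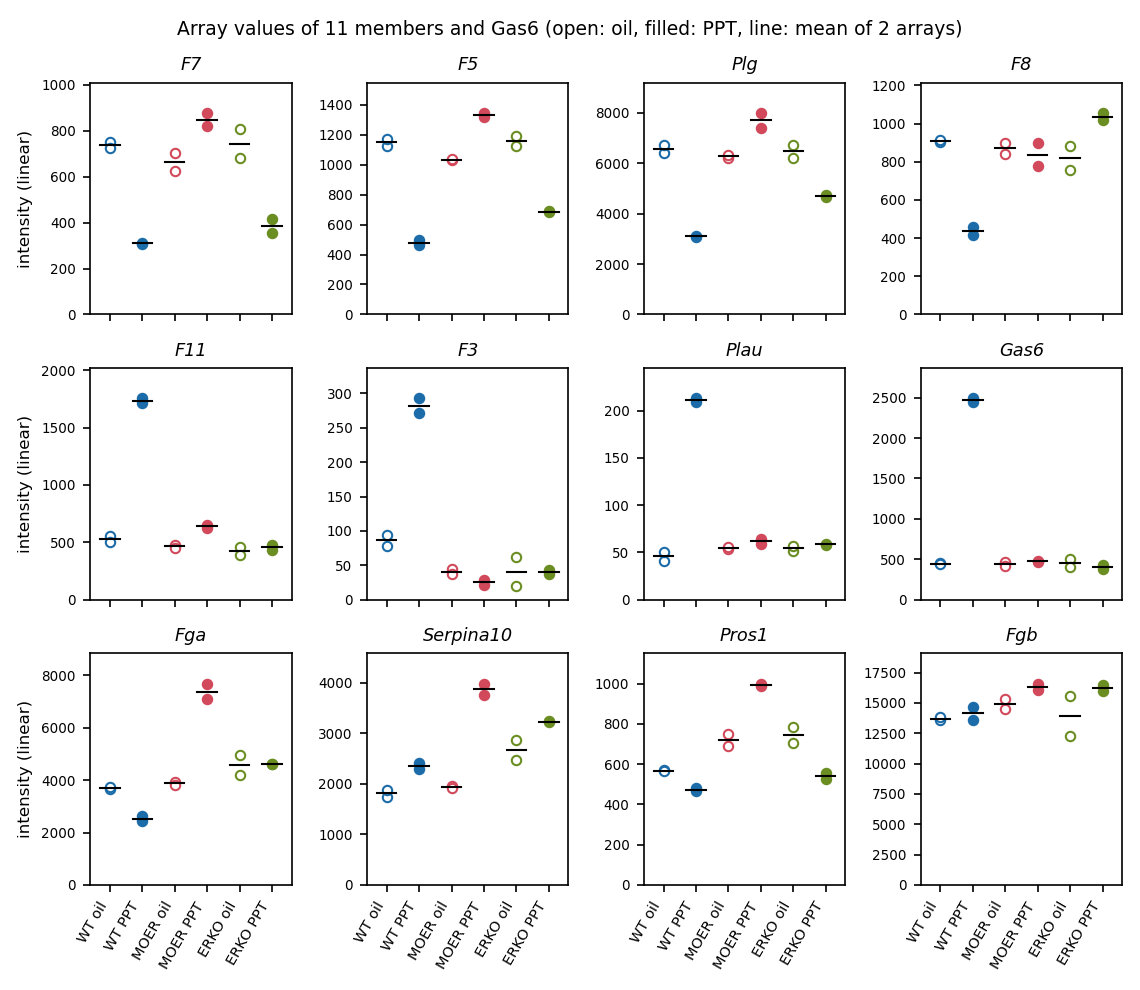
Linear intensity of 11 of the genes and of Gas6 on each array, oil as open and PPT as filled circles, with a line at the mean of 2 arrays. F7, F5, Plg and F8 drop in the wild type PPT arrays, F11, F3, Plau and Gas6 are highest there, and Fga and Serpina10 are highest in the MOER PPT arrays.

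Among the serpins, antithrombin (Serpinc1), the main inhibitor of thrombin and factor Xa, read 6378 and 6659.9 in wild type oil and 3752 and 3701 after PPT, 6353 and 5274 and 4376 and 4456 in ERKO, and 6276 and 6268 and 6122 and 6455 in MOER. It fell in wild type (-0.80 ± 0.099, adjusted p = 0.000112) and ERKO (-0.39 ± 0.099, 0.0228), and the MOER arrays overlapped (0.00 ± 0.099). The ERKO call was lost without either ERKO PPT array. Heparin cofactor II (Serpind1), a thrombin inhibitor, read 4813 and 5155 and then 2723 and 2528 in wild type, 6722 and 6216 and 5211 and 5279 in ERKO, and 5673 and 5752 and 5805 and 6316 in MOER. Its fall was larger in wild type (-0.92 ± 0.091, adjusted p = 2.19e-05) than in ERKO (-0.30 ± 0.091, 0.0449), by -0.62 ± 0.13 (adjusted p = 0.00579), and the ERKO call did not hold in 11 of 12 fits that each left out 1 array. Serpina10, the protein Z-dependent inhibitor of factors Xa and XIa, went the other way. It read 1743 and 1880.3 and then 2300.2 and 2402 in wild type, 1958 and 1923 and 3977 and 3752 in MOER, and 2871 and 2477 and 3234 and 3212 in ERKO. Every PPT array was above the oil arrays of its genotype, with 0.99 ± 0.096 in MOER (adjusted p = 0.000127), 0.37 ± 0.096 in wild type (0.0125) and 0.27 ± 0.096 in ERKO (0.0759, not called). Wild type minus MOER was -0.61 ± 0.14 (adjusted p = 0.00785), and the wild type call was lost without wild type oil replicate 1 or wild type PPT replicate 2.

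Of the inhibitors at the vessel wall, Tfpi (tissue factor pathway inhibitor) read 654 and 622 in wild type oil and 888 and 841 after PPT, 507 and 419 and 698 and 699.7 in ERKO, and 553 and 479 and 453 and 513 in MOER. It rose in wild type (0.43 ± 0.12, adjusted p = 0.0157) and ERKO (0.58 ± 0.12, 0.00690), and the MOER arrays overlapped (-0.09 ± 0.12). The wild type call was lost without any 1 of the 4 wild type arrays, and the ERKO call without ERKO PPT replicate 2. Thrombomodulin (Thbd) and the protein C receptor (Procr) had low intensities, 10.1 to 104.8 and 44.6 to 77.9, and were called in no comparison. The Thbd value of 10.1 was ERKO oil replicate 2, against 69.9 to 104.8 on the other 11 arrays, so that its ERKO change of 0.99 ± 0.42 (adjusted p = 0.131) rested on that array and was 0.06 without it.

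In fibrinolysis, plasminogen (Plg), the zymogen of plasmin, read 6397 and 6697 in wild type oil and 3107 and 3089 after PPT, 6727 and 6211 and 4649 and 4721 in ERKO, and 6215 and 6309 and 7401 and 7977 in MOER. It fell 2.11-fold in wild type (-1.08 ± 0.086, adjusted p = 4.40e-06) and 1.38-fold in ERKO (-0.46 ± 0.086, 0.00509), and was higher on both PPT arrays in MOER without a call (0.29 ± 0.086, 0.0951). Wild type and ERKO differed by -0.61 ± 0.12 (adjusted p = 0.00450). Urokinase (Plau), an activator of plasminogen, was under the 40th percentile in wild type oil (40.9 and 50.8) and read 213 and 209 after PPT, at least 3.91-fold higher (adjusted p = 2.14e-07). In the other 4 groups it stayed near background, at 53.7 and 55.9 and 58.9 and 64.3 in MOER and 52.0 and 57.1 and 59.2 and 58.4 in ERKO. The tissue activator (Plat) was dim, at 46.9 to 73.8, and was called in no comparison. Serpinf2, the plasmin inhibitor, read 3872 and 3828 and then 2611 and 2674 in wild type, 3906 and 3321 and 2388 and 2362 in ERKO, and 3445 and 3495 and 4818 and 4502 in MOER. It fell in wild type (-0.54 ± 0.095, adjusted p = 0.00135) and ERKO (-0.60 ± 0.095, 0.00224) and rose in MOER (0.42 ± 0.095, 0.0311), the last lost in 10 of the 12 fits without 1 array. Hrg, which binds plasminogen and heparin, went from 3191 and 3359.7 to 1574 and 1465 in wild type and from 3078 and 3041 to 1920.0 and 1996 in ERKO, and read 3266 and 2918 and 3035 and 3429 in MOER. Its changes were -1.10 ± 0.098 (adjusted p = 9.90e-06), -0.64 ± 0.098 (0.00174) and 0.06 ± 0.098 (0.863).

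The differences between responses were tested directly. Wild type minus MOER was called for 19 of the 29 genes, 4 higher and 15 lower, beside 10.5% and 11.1% of all probe sets. MOER minus ERKO was called for 13, 12 higher and 1 lower (Tfpi), beside 5.88% and 5.59%. Wild type minus ERKO was called for 10, with F3, F11 and Plau higher and F5, F8, F10, Fga, Serpind1, Plg and Hrg lower, beside 22.3% of all probe sets in either direction. This last count was 17 without ERKO oil replicate 1, 5 without wild type oil replicate 2 and 6 without wild type PPT replicate 2. For F2, F7 and Proc the wild type and ERKO falls did not differ by call, with 95% intervals of -0.51 to 0.08, -0.65 to 0.06 and -0.50 to 0.14. These 3 comparisons share arrays, so their counts are not independent.

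Genes of hepatocytes outside coagulation also changed in wild type. Of 9 hepatocyte markers 4 fell, among them Cps1 (-1.99 ± 0.091) and Cyp2e1 (-1.50 ± 0.12), and Tat rose (0.45 ± 0.10), and their summed intensity went from 82839 to 84027 under oil to 62732 to 65846 after PPT. In ERKO 5 of the 9 fell, Tat (-0.68 ± 0.10) and Cps1 (-0.57 ± 0.091) among them, and in MOER none of the 9 was called by limma, with 1 at an unadjusted p under 0.05. Their part in the coagulation values was not tested. Of 14 genes of secreted hepatocyte proteins, which share Alb, Apoa1 and Ttr with the markers, 9 fell and 1 rose, with a median of -0.51, Fetub (-1.24 ± 0.093), Lcat (-0.99 ± 0.085), Ahsg (-0.78 ± 0.13) and Apoa1 (-0.66 ± 0.12) falling most. In MOER 1 of the 14 rose and the other 13 were not called, and in ERKO 4 fell and the other 10 were not called. When each array was centred on the median of these 14 genes, a setting added after seeing the data, the wild type response of all probe sets shifted up by 0.52 on the log2 scale. The 29 genes then gave 15 higher and 9 lower in wild type, in place of 5 and 14, and 14 of the 19 calls kept their direction. In ERKO they gave 5 higher and 9 lower in place of 1 and 13, in wild type minus MOER 9 and 11 in place of 4 and 15, and in wild type minus ERKO 9 and 1 in place of 3 and 7. With arrays centred on their own median, ERKO gave 3 higher and 14 lower. The share of all probe sets called was not computed under either centring. These counts therefore do not set the 29 genes apart from other genes. F5, F7, F8, F10, F2, Serpinc1, Serpind1, Plg and Hrg stayed lower by call in wild type under the hepatocyte centring, while Fga, Serpinf2, Proc, Proz and F12 did not.

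**Figure D4:**
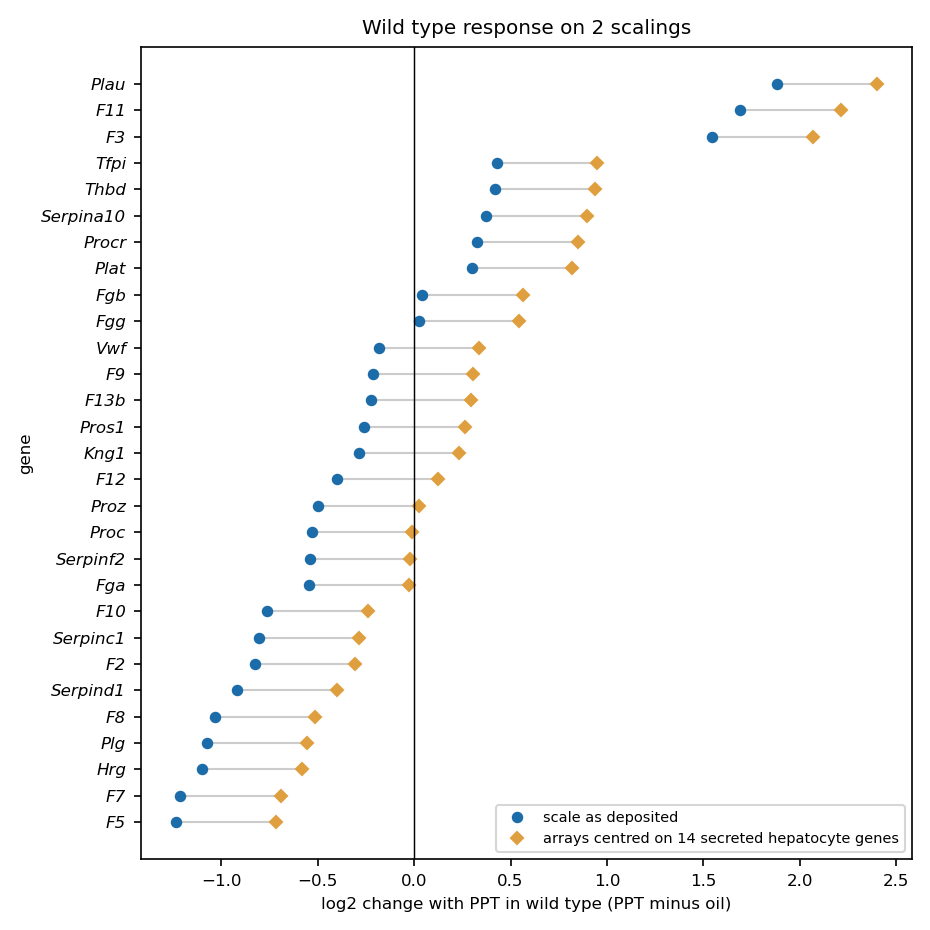
Wild type log2 change with PPT of the 29 tested genes on the deposited scale (circles) and with each array centred on 14 secreted hepatocyte genes outside the list (diamonds). Every gene moves right by about 0.52, so that F9, F12, F13b, Pros1, Proz, Kng1 and Vwf cross 0 and Fga, Proc and Serpinf2 lie close to it, while F3, F11 and Plau stay highest and F5, F7, Hrg and Plg lowest.

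Transcription factors of hepatocytes stood beside these values. Of 14 tested, 9 fell and 2 rose in wild type, 2 fell in MOER, and 6 fell in ERKO. Onecut1, under the 40th percentile after PPT, was at least 4.83-fold lower in wild type. Other large wild type changes were in Cebpa (-1.39 ± 0.10) and Nr1i3 (-0.98 ± 0.091), which fell, and Nr0b2 (1.12 ± 0.15), which rose. The 2 that fell in MOER were Nr0b2 (-1.45 ± 0.15, limma adjusted p = 0.000243), opposite to wild type, and Onecut1 (-1.34 ± 0.12, 5.38e-05). The part of these factors in the coagulation values was not tested.

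A further 30 genes set beside the pathway were tested, and not all of them encode clotting proteins. In wild type 11 rose and 8 fell, beside 14.8% and 16.2% of all probe sets. In MOER 1 rose (Serping1), beside 2.35%, and in ERKO 4 rose and 7 fell, beside 9.48% and 8.46%. Gas6, a vitamin K-dependent protein related to protein S that binds TAM receptors, read 449 and 439 in wild type oil and 2442 and 2490.3 after PPT (2.43 ± 0.12, adjusted p = 1.16e-07). On the other 8 arrays it lay between 381 and 503, with no call in MOER (0.09 ± 0.12) or ERKO (-0.14 ± 0.12). Plaur, the urokinase receptor, was under the 40th percentile in wild type oil (40.4 and 44.1) and read 125 and 161 after PPT, at least 2.63-fold higher (adjusted p = 2.86e-05). F13a1, the catalytic subunit of factor XIII, was likewise dim under oil (20.8 and 11.3) and read 69.7 and 77.6, at least 1.36-fold higher (adjusted p = 1.84e-05). Pcsk6, a proprotein convertase, rose in wild type (1.63 ± 0.11) and fell in ERKO (-0.70 ± 0.11), and Anxa2, a plasminogen-binding surface protein, rose in both (1.11 ± 0.11 and 0.67 ± 0.11).

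Habp2, a protease that cuts factor VII, fell in wild type (-0.62 ± 0.092) and ERKO (-0.64 ± 0.092) and was 0.32 ± 0.092 in MOER (adjusted p = 0.0838). Serping1, the inhibitor of the contact proteases, read 4094 and 4237 and then 2614 and 2422 in wild type, 4503 and 4263 and 5819 and 6013 in MOER, and 6360.2 and 5559 and 3716 and 3875 in ERKO. It therefore fell in wild type (-0.72 ± 0.095) and ERKO (-0.65 ± 0.095) and rose in MOER (0.43 ± 0.095, adjusted p = 0.0272). The proteases Hgfac (-1.21 ± 0.095) and Tmprss6 (-1.36 ± 0.099), which are not clotting factors, fell in wild type and also in ERKO (-0.95 ± 0.095 and -0.37 ± 0.099). A2m, a broad protease inhibitor, rose in ERKO alone by call, from 241 and 329 to 1681 and 1577 (2.46 ± 0.13, adjusted p = 4.18e-07), with 0.22 ± 0.13 in wild type, a difference of -2.24 ± 0.18 (adjusted p = 9.02e-06). Fgl1 was called in no PPT response and Serpina5 was too dim to test.

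Among the 30 further genes counted above, 6 belong to the vitamin K cycle or to the processing and export of clotting proteins. Of these 6, Vkorc1l1 (0.74 ± 0.085), Lman1 (0.63 ± 0.080) and Mcfd2 (0.62 ± 0.11) rose in wild type. Furin, a proprotein convertase, fell (-0.37 ± 0.10). Lman1 and Mcfd2 form the receptor that carries factors V and VIII out of the endoplasmic reticulum, and both rose in the arrays in which F5 and F8 fell. Ggcx, the carboxylase itself, fell in ERKO (-0.54 ± 0.11, adjusted p = 0.00738) and was -0.30 ± 0.11 in wild type (0.0627), and Vkorc1, which recycles vitamin K, was called in no PPT response. In MOER limma called none of the 6, and 1 had an unadjusted p under 0.05.

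Under oil, 11 of the 29 genes differed between ERKO and wild type at an unadjusted p under 0.05 in limma, without a share of all probe sets. By adjusted p, ERKO minus wild type was called for 4 of the 29, beside 5.01% of all probe sets. Serpina10 (0.55 ± 0.096, adjusted p = 0.0101), Pros1 (0.38 ± 0.090, 0.0392) and Serpind1 (0.37 ± 0.091, 0.0433) were higher and Tfpi (-0.46 ± 0.12, 0.0497) was lower. That count ran from 0 without either wild type oil array to 12 without ERKO oil replicate 1. At an unadjusted p under 0.05, MOER minus wild type gave 6 genes in limma, again without a share of all probe sets. By adjusted p it gave 0 calls, beside 5.66% of all probe sets. Over 11 alternative settings it gave at most 2, and 4 without either ERKO oil array. MOER minus ERKO was called for Serpina10 alone (-0.46 ± 0.096, adjusted p = 0.0399), beside 2.05% of all, and gave 0 without any 1 wild type, MOER or ERKO PPT array and 3 without either ERKO oil array.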

How the data were processed

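Total RNA of whole liver, pooled from 3 animals per array, was hybridised to 12 arrays per the labels. The authors deposited 1 linear intensity per probe set and array, for 28815 probe sets. The summarisation and normalisation behind these intensities are not given in the sources used here. Array medians ran from 77.5 to 85.26, and the values were not normalised again. Per the labels' protocols the authors used Cyber-T at high confidence with at least a 2-fold change.

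Here intensities were transformed as log2(intensity + 16). A probe set was kept where at least 2 arrays exceeded their 40th percentile (53.6 to 61.0), and the 19119 kept entered 1 limma fit (limma 3.58.1, R 4.3.3; lmFit and eBayes without trend). Of its degrees of freedom 6 were residual, and moderation raised them to 10.47. With 6 group means, 9 contrasts were tested two-sided with Benjamini-Hochberg adjustment over all 19119 probe sets, and calls were made at an adjusted p under 0.05. A group with both arrays under the 40th percentile was taken as dim, and its comparison with a brighter group is given as at least a fold, with dim arrays set to no less than that percentile. The code was tested on simulated data with known changes. The number of arrays limits the precision.

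Probe sets were named from the platform annotation (1 symbol for 21780, several for 1605, none for 5430), and promoters came from RefSeq, GRCm38.p6. Array values were given for every listed gene called in a contrast at 0.5 or more on the log2 scale (20 genes), and the other 9 by counts, ranges and changes. Of other genes set beside the pathway, the vitamin K and export genes, 8 genes chosen by name and Kng2 are named. Any with a called PPT response of at least 1 is named too. The listed genes and the gene lists were chosen with earlier results of these data known. Alternatives covered the value added before the log, the filter, the scaling, the variance model, the arrays fitted, a replicate block, the call rule, the probe sets of a gene and each array left out in turn.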

Additional observations from a re-analysis of the deposited data

Results flagged for a closer look

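The PPT response differed between genotypes, by limma's test of the difference itself, for 20 of the listed genes in at least 1 of 3 comparisons. The share of all probe sets called in at least 1 of the 3 was not computed. For wild type minus MOER alone the shares of all were 10.5% higher and 11.1% lower. They were 5.88% and 5.59% for MOER minus ERKO, and 22.3% in either direction for wild type minus ERKO. Values are differences of log2 changes.

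Wild type minus MOER was above 0 for F3 (2.00), Plau (1.75), F11 (1.25) and Tfpi (0.52), with adjusted p-values from 9.69e-06 to 0.0439. It was below 0 for the clotting factors F5 (-1.60), F7 (-1.56), Fga (-1.47), F2 (-1.14), F10 (-1.02) and F8 (-0.97). The inhibitors Serpind1 (-1.005), Serpinc1 (-0.81), Pros1 (-0.71), Serpina10 (-0.61), Proz (-0.60) and Proc (-0.52) were also below 0. In fibrinolysis the same held for Plg (-1.37), Hrg (-1.16) and Serpinf2 (-0.96). Adjusted p-values of these 15 ran from 6.17e-06 to 0.0261. The Tfpi and Proc differences were each lost in 8 of 12 leave-one-out fits.

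MOER minus ERKO was above 0 for F7 (1.27), F5 (1.10), F2 (0.93), Fga (0.91), F12 (0.69) and F10 (0.57). The difference was also above 0 for Serpinf2 (1.02), Pros1 (0.91), Plg (0.76), Serpina10 (0.72), Hrg (0.70) and Proz (0.47), with adjusted p-values over these 12 genes from 0.000204 to 0.0368. It was below 0 for Tfpi (-0.68, adjusted p = 0.0240).

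Wild type minus ERKO was above 0 for Plau (1.79), F11 (1.60) and F3 (1.46). It was below 0 for F8 (-1.37), Serpind1 (-0.62), Plg (-0.61), Fga (-0.56), F5 (-0.50), Hrg (-0.46) and F10 (-0.45). Adjusted p-values ran from 7.25e-06 to 0.0363. With arrays centred on secreted hepatocyte genes the last 6 of these 7 were no longer called.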

How the results depend on the processing

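Of 86 called values (29 genes in 9 contrasts), 57 were called in all 12 fits that left out 1 array, and 46 under every other setting except the call rule after the labels. Of 175 values not called, 57 were called in at least 1 leave-one-out fit and 49 in at least 1 other setting.

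Leaving out 1 array gave 17 to 25 calls for the wild type response, 2 to 10 for MOER and 8 to 18 for ERKO. For differences of responses it gave 17 to 22 (wild type minus MOER), 5 to 17 (wild type minus ERKO) and 10 to 18 (MOER minus ERKO). Under oil it gave 0 to 12 (ERKO minus wild type), 0 to 4 (MOER minus wild type) and 0 to 3 (MOER minus ERKO). Without ERKO oil replicate 2, F3 in ERKO turned to -0.47, and without replicate 1 it was 0.65.

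The rule after the labels (unadjusted p under 0.0001 and at least 2-fold) called 7 genes for the wild type response and 0 for that of MOER or of ERKO. It called 10 for wild type minus MOER, 3 for wild type minus ERKO and 3 for MOER minus ERKO, and 0 in ERKO minus wild type and in MOER minus ERKO under oil. Shares of all probe sets called were computed for the main limma fit only, so counts under other settings or rules have none beside them. The MOER response was called for 3 genes with no filter and for 10 with median centring or quantile normalisation. The ERKO response was called for 3 genes with only the groups compared.

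ERKO minus wild type under oil was called for 2 genes with 1 added before the log, 1 with no filter, 8 with quantile normalisation, 8 with the trended variance and 0 with only the groups compared. MOER minus wild type under oil was called for 2 genes with 64 added, 1 with median centring, 1 with quantile normalisation, 1 with the trended variance, 2 with only the groups compared and 2 with hepatocyte centring. MOER minus ERKO under oil was called for 0 genes with 1 added, 0 with no filter, 2 with quantile normalisation, 0 with only the groups compared and 2 with hepatocyte centring.

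Hepatocyte centring, added after seeing the data, shifts the wild type response by construction and turned the sign of F9 (0.31), F12 (0.12), F13b (0.30), Pros1 (0.26), Proz (0.025), Kng1 (0.23) and Vwf (0.34) in wild type. In wild type minus MOER it turned F13b (0.38), Fgb (0.42) and Fgg (0.32), and in wild type minus ERKO F10 (0.0011). The cause of the other changes was not tested.

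Samples share replicate numbers across groups, but the deviations of same-numbered arrays correlated at -0.147 to 0.377 over 15 pairs of groups, with 5 above 0.1, the 3 pairs of oil groups (0.276 to 0.377) among them, so the numbers were not taken as pairing. With the replicate block the PPT responses gave 19 (wild type), 6 (MOER) and 13 (ERKO) calls, with 2 for ERKO minus wild type under oil and 0 for MOER minus ERKO under oil. Low intensities (F3, Plau, Plat, Vwf, Thbd and Procr) limit what can be said of these genes.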
